A study of Mus musculus with 6 samples.

Results

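Small nuclear RNAs are short transcripts without a poly(A) tail that work inside RNA-protein particles of the nucleus. U1, U2, U4 and U6 belong to the spliceosome, the machine that removes introns from pre-mRNA, U7 guides the cleavage that forms the 3' end of replication-dependent histone mRNA, and 7SK holds the elongation factor P-TEFb in an inactive complex. Their read signal was described in RPE/choroid, the retinal pigment epithelium together with the vascular layer beneath it. The 6 entries U1, U2, U4, U6, U7 and 7SK were taken by their exact names from a table of 33924 entries, and all 6 were present with a value above 0. They had been selected on measured values of this table, known from earlier results, and the sources used here do not say which of its columns decided, so their levels are given as a description without a test.

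The tissue came from C57BL/6J mice, an inbred strain, and the labels name no transgene or treatment. There were 3 libraries of young mice, given as 1 to 2 months old, and 3 of aged mice, given as 20 to 24 months old in the titles and as 22 to 24 months old in the time field. All were entered as male in the labels, whereas the study's methods include both sexes and give a slightly older young group. A pair of eyes was used for each sample. Total RNA was sequenced after depletion of ribosomal RNA and with no poly(A) selection, so RNAs were not left out for lacking a tail. How fully RNAs as short as these were recovered was not tested. The single usable value per entry was baseMean, the authors' mean of normalized counts over all 6 libraries. It merges young and aged mice, so it gives no level of the small nuclear RNAs in either group and no spread between mice. The table also carries the authors' own comparison of the groups, which was set aside, so no difference between young and aged mice is given. Values per mouse, read depth and replicate error were not analysed here, and neighbouring values below cannot be said to differ beyond replicate error.

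The sequences are shown for the short stretches through which U1, U2 and U7 pair with other RNAs, and for a repeated stretch of 7SK to which its proteins bind. They are those of named mouse genes in the GENCODE M21 annotation of GRCm38, the build that the authors also used. Capitals mark a short motif that a search found, CTTACCT in U1, GTAGTA in U2, CTCTTT in U7 and GATC in 7SK.
U1 (Rnu1b1): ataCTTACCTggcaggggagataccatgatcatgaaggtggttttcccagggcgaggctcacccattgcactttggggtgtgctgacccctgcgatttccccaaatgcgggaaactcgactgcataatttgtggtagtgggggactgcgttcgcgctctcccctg
U2 (Rnu2-10): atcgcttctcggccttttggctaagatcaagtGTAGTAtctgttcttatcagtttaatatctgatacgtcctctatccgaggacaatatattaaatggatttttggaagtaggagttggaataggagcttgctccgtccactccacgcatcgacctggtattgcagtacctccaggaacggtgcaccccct
U7 (Rnu7): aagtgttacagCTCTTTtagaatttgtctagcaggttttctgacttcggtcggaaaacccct
7SK (Rn7sk, bases 1 to 300): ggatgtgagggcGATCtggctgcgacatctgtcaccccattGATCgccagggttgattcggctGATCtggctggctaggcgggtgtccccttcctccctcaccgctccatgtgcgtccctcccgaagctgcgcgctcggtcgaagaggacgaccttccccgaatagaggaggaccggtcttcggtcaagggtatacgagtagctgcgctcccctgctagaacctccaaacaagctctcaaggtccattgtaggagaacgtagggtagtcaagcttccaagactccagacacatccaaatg

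The 5' end of U1 pairs with the 5' splice site, and its motif began at base 4. The U2 motif lies in the stretch that pairs with the intron branch point, and it began at base 33. The motif of U7, from base 12, lies in the part that pairs with histone pre-mRNA. The letters GATC occurred 3 times in 7SK, from bases 13, 42 and 64. GATC also occurred 1 time each in the U1 and U2 sequences, so the letters alone do not set 7SK apart.

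These letters were then counted, on the printed strand, in the 1383 small nuclear RNA models of the annotation. The U1 motif was in 5.35% of them, the U2 motif in 3.69%, the U7 motif in 4.48% and GATC in 20.0%. When either strand was allowed, the shares were 5.78%, 4.77%, 7.38% and 20.0%. The Sm site is where a ring of Sm proteins closes around a small nuclear RNA. The letters TTTNTGG, a core of that site, were found from base 128 of U1 and base 100 of U2. They were not found in U7 or 7SK. U7 carried TTTNTCT from base 23 instead, and U7 is known to bind a ring in which Lsm10 and Lsm11 replace a pair of the Sm proteins. Among the models, 11.2% held TTTNTGG and 7.23% held TTTNTCT (13.1% and 11.4% on either strand). The pair of motifs overlaps in its first letters by design.

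The reference genes of the families differ in number of close copies. Rn7sk lies on chromosome 9 at 78175303 to 78175633 and is 331 bases long. It had 0 other small RNA models within 10% of its length in edits (substitutions, insertions or deletions), and 27.2% of its words of 31 bases occurred in no other annotated gene. Rnu7, on chromosome 6 at 124741225 to 124741286, is 62 bases long. It also had 0 such models, but each of its words occurred in at least 1 of 2 other genes.

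Rnu6, 107 bases long, stood at the other end. There were 42 other models identical to it, 183 within 5% edits and 303 within 10%. Rnu2-10, on chromosome 11 at 101658238 to 101658428 and 191 bases long, had 3 identical models and 13 within 10%. For U1, Rnu1b1 on chromosome 3 at 96359953 to 96360117 is 165 bases long and had 1 identical model, with 28 within 10%.

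Of the U1 genes with a name, Rnu1b2 was the same as Rnu1b1, Rnu1b6 differed from it by 3 edits, and Rnu1a1 on chromosome 11 by 7. For Rnu6, Rnu2-10 and each named U1 gene, 0.0% of the words occurred in that gene alone. Each of these genes also had at least 1 identical model, and reads within identical copies cannot be assigned to 1 of them by sequence. Rnu7 had 0.0% of such words too but no identical model, and whether reads of the length used can be assigned to it was not tested. The named genes themselves were not entries of the table. Of 19 names beginning with Rnu or Rn7 that were looked for, 0 were found, and 0 of the 1385 names of small nuclear RNA genes in the annotation were found. Each entry is therefore referred to by its family name. Which loci it covers, and whether it sums them, was not tested.

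**Figure D1:**
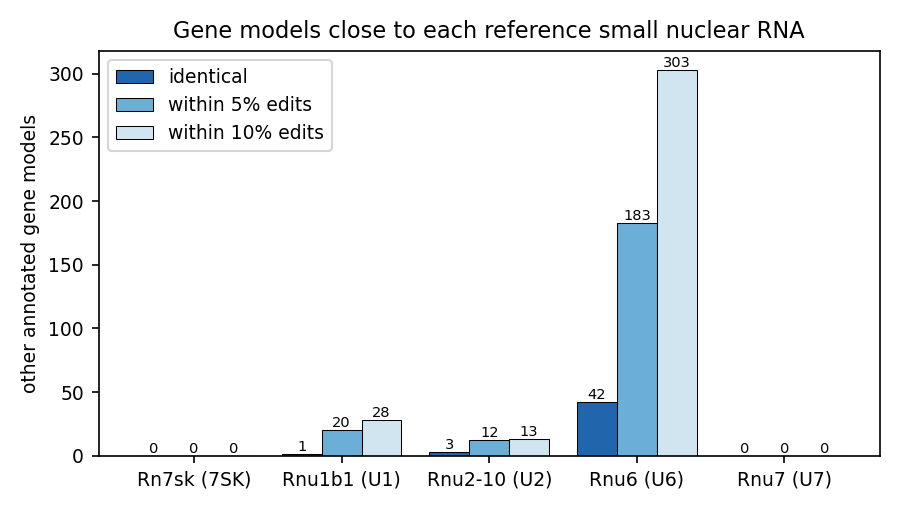
Number of other annotated small RNA gene models (vertical axis) that are identical to the reference gene of each family or within 5% or 10% edits of it. Rnu6 has 303 models within 10%, whereas Rn7sk and Rnu7 have 0.

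7SK dominated the signal of the group. Its baseMean was 192300 normalized counts, the second highest of the 26681 entries above 0, behind Malat1 with 269792 and ahead of Trf with 174234 (both named for their place beside 7SK). On its own it held 1.00% of the summed baseMean of the table and 89.0% of the sum over the 6 entries. The 6 entries together held 215998 of 19192071 normalized counts, which is 1.13%.

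The spliceosomal entries followed at widely spaced levels. U1, which starts spliceosome assembly, had a baseMean of 18450 and ranked 72, with 8.54% of the sum of the group. U4, which keeps U6 inactive by pairing with it until activation, had 3771 and ranked 823. U6, the RNA at the catalytic centre, had 1178 and ranked 3968.

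U2, which recognises the branch point, had a baseMean of 274 and ranked 10010, so 62.5% of the entries above 0 lay below it. U7 was the lowest member, with 25.3 and rank 15811. Even so, 40.7% of the entries above 0 lay below it, and the median of those entries was 82.1 normalized counts. The order 7SK, U1, U4, U6, U2, U7 is an order of signal in the table. Its relation to numbers of molecules was not tested, and depends on how length was treated and how fully short RNAs were recovered.

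**Figure D2:**
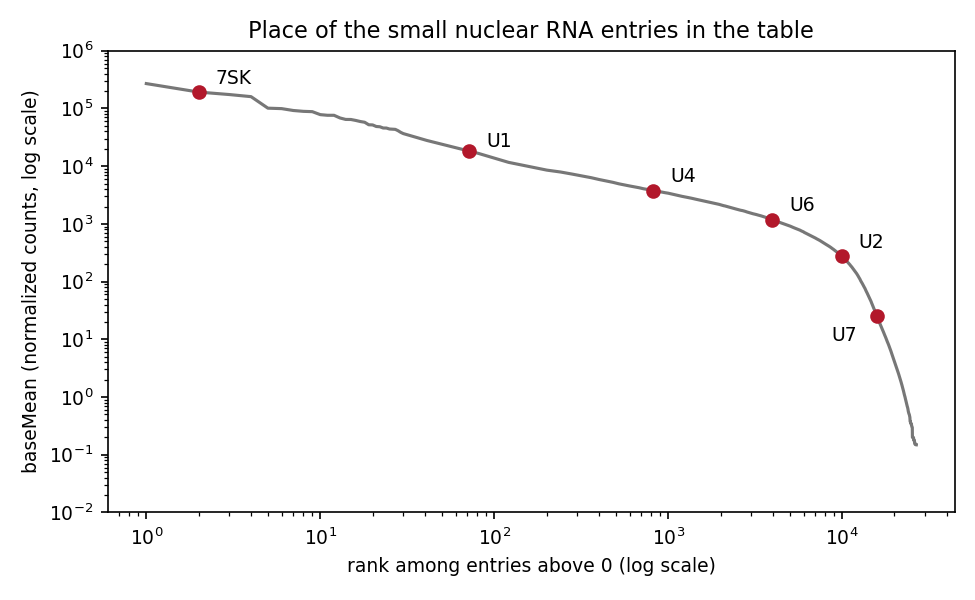
BaseMean in normalized counts (vertical axis, log scale) against the rank of the entry among those above 0 (horizontal axis, log scale), with the 6 small nuclear RNA entries as points on the line of all entries. 7SK sits at rank 2 and U7 at rank 15811.

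Whether baseMean was already scaled to transcript length is open. The study's methods name TPM, an abundance unit scaled to transcript length, and a step to normalized counts by a total count method, and elsewhere the study speaks of read counts. Whether that step removed the scaling to length is not given in the sources used here. Over the 16468 protein-coding entries with a known length, the Spearman correlation of baseMean with length was 0.397 for the longest transcript. It was 0.00628 for the median transcript, the main length used below. After division by length, the correlations were 0.122 and -0.293 in the same order. On the median transcript, the 4117 shortest entries had a median of 655 per kilobase and the 4117 longest had 108, so that scale ran higher for short entries. On the longest transcript these medians were 56.4 and 132. Single long mRNAs ranked high. Ttn, at 106824 bases in its longest transcript, had a baseMean of 160213 and rank 4, and Ahnak, at 18100 bases, ranked 15. Acta1, a muscle gene like Ttn, had 17441 at 1446 bases, and on the longest transcript it had 12062 per kilobase against 1500 for Ttn. These genes were picked with their values in view and do not settle the scale of the whole table. Folds between genes are therefore given both per kilobase of RNA and with baseMean undivided. Per kilobase, 7SK stood first among 24961 entries with a known length, at 580967 normalized counts per kilobase. U1 had 111816 at rank 5, U6 had 11011 at rank 129, U2 had 1436 at rank 2396 and U7 had 408 at rank 6741. The median of all these entries, of any length, was 72.5.

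Per kilobase, 7SK was 5.20-fold above U1 and 52.8-fold above U6, against 10.4-fold and 163-fold undivided. U1 was 10.2-fold above U6 and 77.9-fold above U2, against 15.7-fold and 67.3-fold undivided. U2 was 3.52-fold above U7 per kilobase and 10.8-fold undivided. The order 7SK, U1, U6, U2, U7 was the same on both scales. U4 has no value per kilobase, as its family has no named gene in the annotation used. The RNAs are at most 331 bases long, and the length that the authors' quantification assigned to such short RNAs is not given in the sources used here. The values per kilobase are therefore nominal, and the part of length in the differences was not tested.

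Other small RNA entries of the table give these levels a scale. Of 35 names looked for, 8 were found. U5, the remaining RNA of the major spliceosome, which joins U4 and U6 in a shared particle, had a baseMean of 33.5, or 289 per kilobase. The minor spliceosome, which removes a rare class of introns, has its own RNAs. Among them, U11 had 67.0, U6atac 66.3, U12 54.2 and U4atac 28.4 normalized counts. U11 and U12 reached 500 and 359 per kilobase, below U2 and on either side of U7 on that scale.

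U3, a nucleolar RNA needed for ribosomal RNA processing, had 620 normalized counts and 2913 per kilobase, above U2. Y_RNA, a family bound by the Ro protein, had 393, and U8, a nucleolar RNA, had 4.48. A further 4 family entries were chosen after their values were seen. RNase_MRP, the RNA of a ribosomal RNA processing enzyme, had 19890 normalized counts and ranked 66, close to U1. Vault had 523, the telomerase RNA entry 8.13 and RNaseP_nuc, the RNA of the enzyme that trims tRNA precursors, 6.42.

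**Figure D3:**
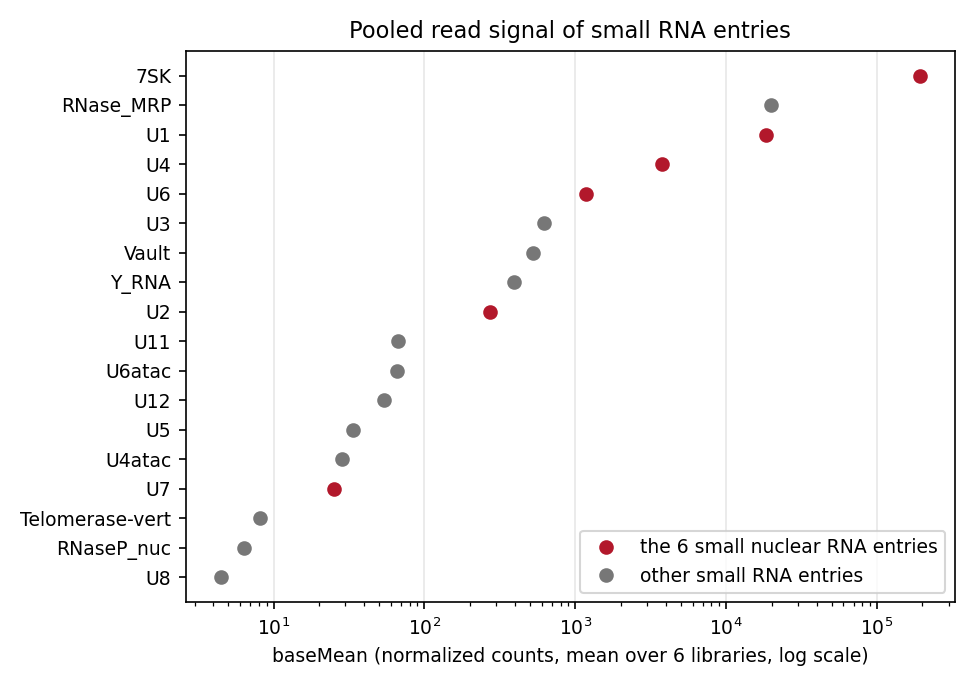
BaseMean in normalized counts (horizontal axis, log scale) of the 6 small nuclear RNA entries and of 12 other small RNA entries, 1 point per entry and no error bars, since the column is a mean over all libraries. The members span from 25.3 for U7 to 192300 for 7SK.

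Genes of proteins that bind these RNAs, that act with them, or that serve their transcription, assembly and export were read from the same column. Of 75 such genes, 72 were found, and 0 of those stood at 0. The background here was the 16468 protein-coding entries with a known length, not matched for length to the genes compared. They had a median of 203 normalized counts per kilobase. That median was 103 with the longest transcript of each gene as its length, and 333 normalized counts undivided.

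All 7 genes of the 7SK particle and of P-TEFb lay above the median of 203, and 6 of the 7 lay above the background on each of the other scales. Their own median was 504, from 252 for Hexim2 to 1590 for Mepce, the enzyme that caps 7SK. Larp7, which stabilises 7SK, had 426, Hexim1, the protein through which 7SK inhibits the kinase, had 280, and the kinase gene Cdk9 had 774. The 7SK entry was 1152-fold above the median of its partner list, and 0 of the 7 genes exceeded it. The fold was 2722 with longest transcripts and 252 undivided, again with 0 of the 7 above it. Undivided, Ccnt2 was the highest of the 7 genes with 2270, and Mepce stood at their median of 763.

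For U1, Snrnp70 had 2412 per kilobase, Snrpc 217 and Snrpa 165, and 0 of the 3 exceeded the U1 entry, which was 516-fold above their median. That fold was 891 with longest transcripts and 86.5 undivided, and 0 of the 3 exceeded U1 on those scales too. The 15 genes found for U4 and U6 had a median of 406, from 58.2 for Lsm7, a subunit of the ring on the 3' end of U6, to 1510 for Ssb, the La protein that binds new U6. The U6 entry was 27.1-fold above that median, with 0 of the 15 genes above it. With longest transcripts the fold was 83.1, and undivided it was 2.92, with 1 of the 15 above U6. U4 was 9.33-fold above the median of the same genes undivided.

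Where U2 and U7 stood among their partners rested on the scale. The 12 genes of the U2 particle had a median of 750, from 103 for Sf3b4 to 4562 for Sf3b2, and 3 of the 12 exceeded the U2 entry. The 7 genes for histone 3' end processing had a median of 220, from 4.84 for Zfp473 to 1478 for the scaffold gene Sympk, and 3 of the 7 exceeded the U7 entry. With the longest transcript of each gene as its length, 0 of the 12 and 0 of the 7 did. Undivided, 10 of the 12 exceeded U2 and 6 of the 7 exceeded U7. The highest of the 12 on that scale was Sf3b1 with 7451. U2 was 1.92-fold above its partner median per kilobase, 5.19-fold with longest transcripts and 0.374-fold undivided. U7 was 1.86-fold, 1.88-fold and 0.0400-fold in the same order, so both lay below their partner medians if the values were already scaled to length. The subunits of the U7 ring, Lsm10 and Lsm11, had 197 and 61.8, and Slbp, which binds the stem-loop of histone mRNA, had 561.

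Genes shared by several of the RNAs were in the same range. The 8 genes of the Sm ring had a median of 490, from 75.0 for Snrpf to 2068 for Snrpb, and 7 of the 8 lay above the protein-coding median. On the other scales 6 (longest transcript) and 5 (undivided) of the 8 did. The 9 genes found for transcription of small nuclear RNA had a median of 434, and 8 of the 9 lay above the protein-coding median of 203, with Bdp1 at 1772 and Zc3h8 at 96.6. With longest transcripts their median was 111 and 5 of the 9 lay above the background, and undivided it was 357 with 6 of the 9 above. For assembly and export, 11 genes were found with a median of 202, and 5 lay above the protein-coding median. That median was 448 without Gemin4, the gene of the list with a baseMean below 10, and 94.5 with longest transcripts. Undivided, it was 493 with 6 of the 11 above the background of 333, so the list moved from just below the background to above it. The genes ran from 2.51 for Gemin4 to 2348 for Ncbp2, a subunit of the cap-binding complex.

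**Figure D4:**
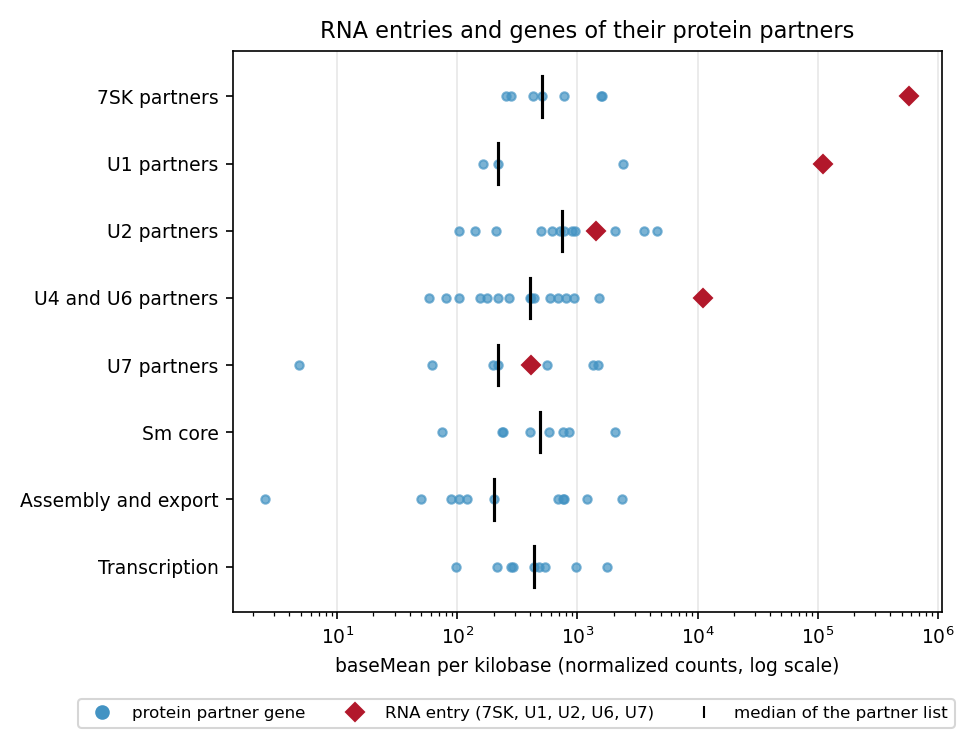
BaseMean per kilobase in normalized counts (horizontal axis, log scale) of single protein partner genes (circles), the median of each list (vertical bars) and the RNA entry itself (diamonds; U4 is not drawn). 7SK, U1 and U6 lie to the right of all their partners, whereas U2 and U7 lie among them when partner lengths are medians over transcripts, above all of them when the longest transcript is used, and below most of them when baseMean is not divided by length.

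The labelled tissue was checked by its markers. All 26 marker genes had a value above 0, and the RPE markers had a median of 32489 normalized counts per kilobase, from 40.5 for Best1 to 143935 for Rgr. The pigment genes listed for melanocytes had a median of 38056. As the RPE is pigmented too, they do not set melanocytes apart from it. Macrophage markers had a median of 2891 and endothelial markers 866. Markers of tissues other than RPE/choroid were present too, with medians of 16358 for rod photoreceptors, 10477 for skeletal muscle and 1011 for lens. Small nuclear RNAs are made in every cell type, so their entries sum over all of these cells. In bulk tissue, fewer cells of a type and less RNA per cell cannot be told apart, and the share of any cell type in these levels was not tested.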

How the data were processed

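Total RNA of RPE/choroid from 3 young and 3 aged mice was sequenced after ribosomal RNA depletion with a stranded kit. The authors used BBDuk for trimming, STAR for alignment to the Ensembl annotation of GRCm38, Sailfish for TPM values that were turned into normalized counts by the total count method, and DESeq2. The deposited table has 1 line per gene symbol. The column used, baseMean, is a signal in normalized counts that the authors averaged over all 6 libraries. The other 5 value columns hold the authors' own comparison of young and aged mice (fold change, standard error, test statistic, p-value and adjusted p-value) and were not used. The table held 0 columns of values per library, so no test between the groups was made, and the depth of each library was not analysed here.

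The planned test of aged against young mice could therefore not be run. Entries were ranked by baseMean among those above 0. For levels per kilobase, baseMean was divided by transcript length (1000 bases per kilobase) from GENCODE M21 (GRCm38, a later annotation release than the authors'), taking the median over transcripts, or over named genes for a small nuclear RNA family. Since the values may already be scaled to length, folds were also computed undivided. A length was found for 93.55% of entries above 0. Close copies were counted by global edit distance (edlib 1.3.9.post1) among small nuclear and miscellaneous RNA models, a step tested on simulated data. The sequence of the U6 reference gene is not reported here. Words of 31 bases were compared on the sense strand. Of the partner and marker genes, 4 were matched by an older symbol and 3 had no match. Genes named are the 6 entries, the highest and lowest of each list, and partners whose role is described. The members and lists were chosen with earlier results of these data known. Python 3.11.15 was used.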

Additional observations from a re-analysis of the deposited data

How the results depend on the processing

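Values were compared to 3 significant digits, as no replicate error exists for a pooled mean. Of 50 alternative values, 24 moved at that precision. Many of the other 26 could not move, such as the ranks of the 6 entries under a minimum baseMean of 10, which all 6 exceed, and the lengths of families with 1 named gene, so they say nothing about stability. The share held by the 6 entries was 0.133% without the 10 most abundant entries, 7SK among them, and 1.14% without mitochondrial and ribosomal RNA entries, against 1.13%. Per kilobase, 7SK had 579217 and U2 had 1466 with RefSeq lengths, and U1 had 111142 with its longest named copy. With the longest transcript of each partner gene, an alternative chosen after seeing the data like the RefSeq lengths, the medians were lower by construction, at 464 for the Sm ring, 125 for U1, 277 for U2, 133 for U4 and U6, 217 for U7, 213 for 7SK, 111 for transcription and 94.5 for assembly and export. With a minimum baseMean of 10, which leaves out Gemin4, the last list had 448. The folds of 7SK, U1, U6, U2 and U7 over their partner medians, 1152, 516, 27.1, 1.92 and 1.86, became 2722, 891, 83.1, 5.19 and 1.88 with longest transcripts. With baseMean undivided, also chosen after seeing the data, they became 252, 86.5, 2.92, 0.374 and 0.0400, which turned the direction for U2 and U7. The longest transcripts also lowered the partners above the U2 entry from 3 to 0 of 12 and above the U7 entry from 3 to 0 of 7.

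No paired analysis was possible because young and aged libraries are merged in 1 mean. Leaving out each replicate, the other pseudocount and the unfiltered fit of the planned test were not run for that reason. The level per annotated copy was not run, as no annotated gene carries the family symbols. The deposited table, with a pooled mean and no value per library, is what leaves the values without an interval. The effect of depth was not analysed.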
